A study of Mus musculus with 59 samples.

Results

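The mRNAs of 7 adipokine genes, Lep, Adipoq, Retn, Cfd, Rbp4, Nampt and Apln, were followed in mouse brown adipose tissue (BAT). They were taken by symbol, 7 of the 55341 gene symbols counted, and all 7 were found in each of the 3 count tables. The 59 libraries came from male C57BL/6J mice of 8 to 12 weeks, one library per numbered sample, in 3 experiments. In the hormone experiment, wild-type mice treated with PTU, a drug that blocks thyroid hormone synthesis, were compared with PTU-treated mice taken 3, 6, 12 or 24 h after thyroid hormone (TH), with 4 mice in each of these 5 groups. BATKO mice received PTU alone (n = 5), or PTU and TH and were taken 24 h after TH (n = 5). Below, times of TH are times after it was given. In the temperature experiment, CTRL mice were kept at 4 °C (n = 3) or 30 °C (n = 4), and BATKO mice at 4 °C (n = 4) or 30 °C (n = 5). In the diet experiment, CTRL mice received chow (n = 4) or a high-fat diet (HFD, n = 4), and BATKO mice chow (n = 2) or HFD (n = 3). The names given to the deposited counts carry the mark 24h for the temperature experiment and 3.5d for the diet experiment. What these times measure is not stated in the sources used here. The allele and the driver behind the name BATKO are not given in the sources used here, and the wild-type mice of the hormone experiment are labelled as such and not as CTRL.

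Adipokines are proteins that fat cells release into the blood or the surrounding tissue. Leptin (Lep) reports the size of the fat stores to the brain, adiponectin (Adipoq) raises insulin sensitivity through the receptors Adipor1 and Adipor2, and resistin (Retn) opposes insulin action in mice. Adipsin (Cfd) is the protease that starts the alternative complement pathway, Rbp4 carries retinol in plasma, Nampt is the rate-limiting enzyme of NAD salvage and is also found outside cells, and apelin (Apln) acts on vessels and other cells through the receptor Aplnr. White fat is the main source of leptin, and BAT expresses it at a low level. Thyroid hormone and cold both activate BAT, which burns fat to make heat.

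In the GENCODE annotation of the mouse build GRCm38, Lep lies at chr6:29060220-29073877 on the plus strand and has 4 merged exons, and Adipoq lies at chr16:23146536-23158028 on the plus strand, also with 4. Apln lies at chrX:48025146-48034853 on the minus strand and has 3. The others are Rbp4 at chr19:38116629-38125281 (minus), Retn at chr8:3655770-3660110 (plus), Cfd at chr10:79890853-79892655 (plus) and Nampt at chr12:32819545-32853349 (plus). Nampt shares 5033 bases with Gdap10 on the same strand, so that reads of the pair may have been divided between them, while no other gene overlaps the other 6.

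RefSeq promoters (GRCm38.p6), which run from 250 bases before to 50 bases after a start site, were found for all 7 genes. Those of Lep and Apln, whose mRNAs rose after TH, and of Adipoq, whose mRNA fell, are given on the strand of the gene. Capitals mark exact matches to the motifs searched on both strands, which were a nuclear receptor site AGGTCA, the same site as a direct repeat spaced by 4 bases (DR4), the C/EBP site TTGCGCAA, the hypoxia factor core ACGTG, the TATA box TATAAA and the box CCAAT. No pair of the searched motifs overlapped in these 3 windows.
Lep, chr6:29059971-29060270: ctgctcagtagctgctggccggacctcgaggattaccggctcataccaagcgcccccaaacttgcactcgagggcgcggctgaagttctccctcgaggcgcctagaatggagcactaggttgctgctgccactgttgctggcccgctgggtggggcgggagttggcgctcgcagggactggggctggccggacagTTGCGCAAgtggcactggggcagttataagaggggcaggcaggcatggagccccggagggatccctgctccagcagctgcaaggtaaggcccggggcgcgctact
Adipoq, chr16:23146286-23146585: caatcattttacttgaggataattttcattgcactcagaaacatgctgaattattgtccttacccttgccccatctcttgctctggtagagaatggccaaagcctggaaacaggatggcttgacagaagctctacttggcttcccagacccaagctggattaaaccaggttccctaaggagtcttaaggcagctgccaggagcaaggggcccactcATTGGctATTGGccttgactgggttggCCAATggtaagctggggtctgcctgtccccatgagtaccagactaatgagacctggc
Apln, chrX:48034804-48035103: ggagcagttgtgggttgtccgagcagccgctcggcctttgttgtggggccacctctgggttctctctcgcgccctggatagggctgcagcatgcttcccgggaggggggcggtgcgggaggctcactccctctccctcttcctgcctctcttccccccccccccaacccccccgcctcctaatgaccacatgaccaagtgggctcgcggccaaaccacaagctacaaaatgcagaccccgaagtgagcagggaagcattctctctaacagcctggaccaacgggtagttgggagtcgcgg
The Lep window held one C/EBP site, at position -55 from the start site, a motif found in 0.183% of the 32851 mouse promoters. The Adipoq window held CCAAT 3 times, at -34, -27 and -7, and 37.4% of all promoters hold that motif at least once. None of the motifs was in the Apln window. The DR4 repeat, the arrangement best known for thyroid hormone receptors, was in none of the 7 genes' windows and in 0.0152% of all promoters. AGGTCA, in 16.3% of all promoters, was found among the 7 genes in the Nampt window alone, at -151. The hypoxia core (19.6% of promoters) was in one of the Rbp4 windows and in that of Nampt, and TATAAA (13.6%) in one of Rbp4. These matches describe letters in a short window, and binding was not examined.

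Total counts ranged from 7612059 to 18073627 per library, and mitochondrially encoded genes took 39.2 to 55.7% of them. Levels are given as CPM, a gene's reads scaled to the same total in every library after TMM scaling within its experiment, and levels from different experiments were not tested against each other because the tables were scaled separately. Differences are log2 fold changes from edgeR, called where the adjusted p was below 0.05, and all 7 genes passed the limit on low counts (a mean normalised count above 10) in every fit. The libraries carried markers of brown adipocytes, and Hr, a gene long known to respond to TH, rose from 1.03 to 24.4 CPM in wild-type mice after 24 h. In the BATKO mice Hr had 1.76 CPM on PTU and 2.48 CPM after TH. Skeletal muscle markers (6 genes) summed to between 0.639 and 7710 CPM per library and exceeded 1000 CPM in 11 of the 59. The results were therefore also computed without these 11 libraries.

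Among the 7 genes the levels per kilobase of exon differed widely. In wild-type mice on PTU, Adipoq stood at 959 CPM per kilobase (range 897 to 1006 over 4 mice) and Cfd at 613 (484 to 769), followed by Rbp4 at 133, Retn at 67.5 and Nampt at 47.7. Lep and Apln were the lowest, at 0.572 (0.274 to 1.07) and 0.138 (0.101 to 0.195) CPM per kilobase. Adipoq and Cfd held the 2 highest places in all 15 groups, and exchanged the first. The ranges of Lep and Apln do not meet that of Retn in this group, but at 24 h of TH the ranges of Nampt, Rbp4 and Retn overlapped (means of 44.8, 42.4 and 41.9), as did those of Apln (5.32, 3.05 to 7.97) and Lep (4.95, 0.687 to 8.38). In CTRL mice at 4 °C Lep was the lowest of all, at 0.222 CPM per kilobase (0.110 to 0.288).

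**Figure D1:**
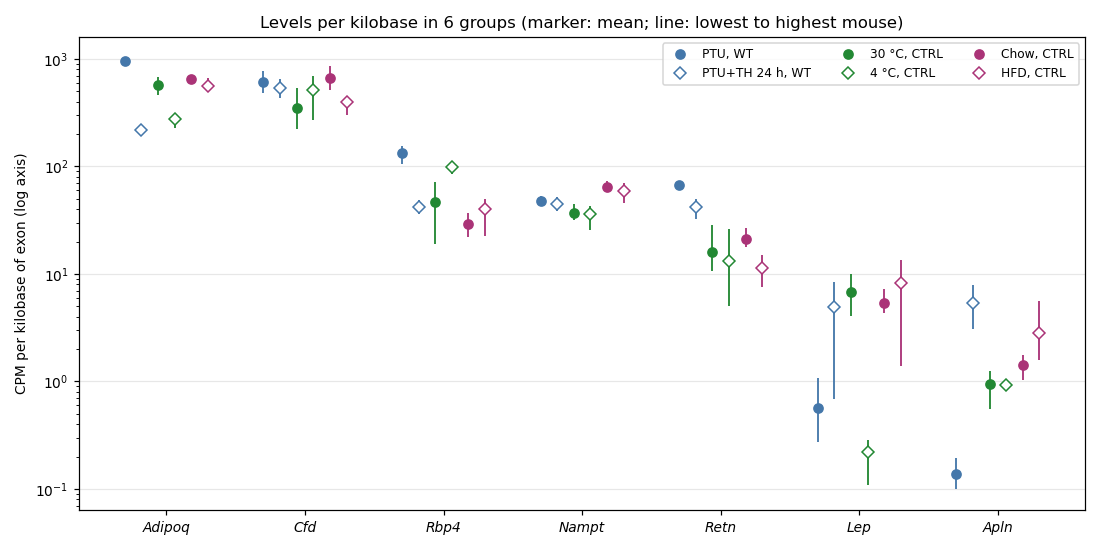
Mean level of each gene in CPM per kilobase of exon (log axis) in 6 groups of wild-type or CTRL mice, with a line from the lowest to the highest mouse. Adipoq and Cfd lie above the other genes in all 6 groups, and the low genes Lep and Apln move over the widest range.

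After TH, the least abundant adipokine mRNAs of wild-type BAT rose and the most abundant, Adipoq, fell. The comparison of PTU-treated mice with and without TH addresses the response to the hormone and its timing. At 24 h Apln was 38.0-fold and Lep 8.61-fold higher, while Adipoq was 4.39-fold, Rbp4 3.14-fold and Retn 1.61-fold lower, and Cfd and Nampt were not called. At 3 h and again at 6 h 2 of the 7 genes were called, beside 9.19% and then 23% of all 13003 genes tested. By 12 h 4 were called, beside 25.7%, and by 24 h 5 were, beside 32.7% (17.2% higher and 15.5% lower). The median log2 change at 24 h was -0.20 over the 7 genes and 0.01 over all genes.

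Apln was the earliest and the steepest riser. The PTU mice had 0.613, 0.457, 0.317 and 0.352 CPM, from 4 to 8 reads each. At 3 h the level was 5.04, 1.95, 2.06 and 2.34 CPM, and at 6 h it was 3.57, 8.86, 7.62 and 7.08 CPM. By 3 h every mouse lay above every PTU mouse. It reached 18.2, 18.6, 24.0 and 16.7 CPM at 12 h and 15.0, 17.3, 9.59 and 25.1 CPM at 24 h, with 129 to 365 reads at the last time. The log2 change from PTU was already 2.67 (SE 0.47, edgeR adjusted p = 0.000979) at 3 h and 3.93 (SE 0.43) by 6 h. It was 5.47 (SE 0.40) after 12 h and 5.25 (SE 0.41, edgeR adjusted p = 4.62e-09) after 24 h, and these 4 calls held when any one mouse was left out. Because the PTU level rests on so few reads, the size of the fold is less certain than its direction, with a 95% interval of 4.40 to 6.09 on the log2 scale at 24 h. The level rose from 6 to 12 h (log2 change 1.54, edgeR adjusted p = 0.00604) and did not differ by the test between 12 and 24 h (-0.22, 95% interval -0.77 to 0.33). The rise from 3 to 6 h (1.26, edgeR adjusted p = 0.0345) was lost when mouse B8, B9 or B11 of the 3 h group or B13, B15 or B17 of the 6 h group was left out (adjusted p from 0.0727 to 0.103), and also in the edgeR fits of only the groups compared and of all 30 mice (adjusted p up to 0.111). Apelin is also made by endothelial cells, and the summed level of 7 endothelial markers was 361 to 373 CPM on PTU, 376 to 405 CPM at 3 h (none of 7 called), 289 to 361 CPM at 6 h (1 of 7 lower), 278 to 345 CPM at 12 h (2 of 7 lower) and 341 to 389 CPM at 24 h (1 higher and 1 lower).

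Lep rose later and unevenly. On PTU it had 0.920, 1.37, 1.77 and 3.60 CPM, and at 3 h 4.49, 0.901, 0.953 and 0.442 CPM. At 6 h the values were 2.02, 10.8, 5.35 and 8.54 CPM, a log2 change of 1.78 that was not called (edgeR adjusted p = 0.0877). This change was called with no limit on low counts and with only the groups compared (edgeR adjusted p down to 0.0114). At 12 h they were 11.4, 21.2, 8.36 and 3.43 CPM and at 24 h 28.1, 26.3, 2.3 and 9.76 CPM. The highest mouse had 6.18 times the lowest at 12 h and 12.2 times at 24 h, and one mouse of each group lay inside the PTU range. The log2 change was 2.56 (SE 0.73, edgeR adjusted p = 0.0130) at 12 h and 3.11 (SE 0.72, edgeR adjusted p = 0.00225) at 24 h. The call at 12 h was lost without mouse B20 (2.07, edgeR adjusted p = 0.0556), and that at 24 h held without any one mouse (log2 change 2.72 to 3.58). The 7 markers that separate white from brown fat summed to 23.3 to 28.7 CPM on PTU and 11.7 to 20.0 CPM at 24 h, and of the 3 that could be tested 2 fell and none rose. At 6 h, however, 2 of the 3 rose (median log2 change 0.67) and the sum was 19.3 to 31.5 CPM, and at 12 h none of the 3 was called. The part of these markers in the Lep values was not tested.

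Adipoq, in contrast, was not called at 3 or 6 h and then fell, with every mouse below the PTU range. It had 1323, 1390, 1345 and 1239 CPM on PTU, and its means were 1269 and 1243 CPM at 3 and 6 h. At 12 h the mice had 745, 986, 773 and 729 CPM, and at 24 h 296, 345, 284 and 282 CPM. The groups at 12 and 24 h did not overlap with the PTU group nor with each other. The log2 change was -0.70 (SE 0.12, edgeR adjusted p = 0.000185) at 12 h and -2.14 (SE 0.13, edgeR adjusted p = 1.18e-10) at 24 h, and -1.43 from 12 to 24 h (edgeR adjusted p = 1.76e-06). All 3 calls held when any one mouse was left out.

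Rbp4 followed a similar but noisier course. The PTU values were 143, 207, 200 and 163 CPM, and the mean went from 186 CPM at 3 h to 113 CPM by 6 h and 127 CPM by 12 h. At 24 h the mice had 65.7, 62.5, 48.9 and 50.4 CPM, all below every earlier mouse. The fall at 24 h was -1.65 (SE 0.22, edgeR adjusted p = 8.22e-06), and most of it came after 12 h (-1.17 from 12 to 24 h, edgeR adjusted p = 0.00182). The lower level at 6 h (-0.68, edgeR adjusted p = 0.0273) lost its call without PTU mouse B3 or B4 or 6 h mouse B13, B15 or B17 (adjusted p from 0.0622 to 0.0863) and in the edgeR fit of all 30 mice (adjusted p = 0.164), and at 12 h the gene was not called (-0.48, edgeR adjusted p = 0.112).

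Nampt moved both ways within the day. It was 231, 235, 231 and 268 CPM on PTU and 166, 170, 150 and 198 CPM at 3 h, a fall of -0.52 (SE 0.11, edgeR adjusted p = 0.00383) with no overlap. The highest of these 3 h mice, B11, stood apart in markers of blood cells, with a neutrophil sum of 65.6 CPM (1.57 to 2.18 in the other 3), a macrophage sum of 114 CPM (40.2 to 42.4) and a red blood cell sum of 1254 CPM (199 to 342), and without it the fall of Nampt was -0.60 (edgeR adjusted p = 0.00172). At 12 h it was 357, 401, 350 and 322 CPM, above all other wild-type mice, a rise of 0.58 over PTU (SE 0.11, edgeR adjusted p = 0.000405). It then fell by 0.67 on the log2 scale between 12 and 24 h (edgeR adjusted p = 0.000533), to 262, 228, 220 and 197 CPM, and the difference from PTU at 24 h was -0.09 (95% interval -0.32 to 0.13). Each of these 3 calls held without any one mouse. From 12 to 24 h the skeletal muscle sum (3.40 to 278, then 244 to 1048 CPM), the endothelial sum (278 to 345, then 341 to 389 CPM) and the macrophage sum (21.5 to 55.2, then 44.5 to 73 CPM) moved up with overlap. The part of these markers in the changes from 12 to 24 h was not tested.

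Retn passed the test at 24 h and Cfd at none of the times. Retn was 107, 103, 115 and 102 CPM on PTU and 61.2, 78.6, 51.4 and 73.8 CPM at 24 h, with no overlap (log2 change -0.69, SE 0.21, edgeR adjusted p = 0.0133), a call lost without mouse B27 (-0.58, edgeR adjusted p = 0.0515). At 3 h Retn had 74.6, 74.2, 101 and 55.2 CPM, also without overlap with PTU, and the log2 difference of -0.51 was not called (edgeR adjusted p = 0.124), nor was that of -0.48 at 12 h (edgeR adjusted p = 0.0877). The 12 h difference of Retn was called with no limit on low counts (edgeR adjusted p = 0.0437) and without mouse B23 (edgeR adjusted p = 0.0277). The mean of Cfd went from 565 CPM on PTU to 906 CPM at 6 h (0.67, edgeR adjusted p = 0.0775) and 491 CPM at 24 h (-0.20, 95% interval -0.76 to 0.35), with no overlap between the PTU and the 6 h mice. At 6 h Cfd was called with no limit on low counts and with only the groups compared (edgeR adjusted p down to 0.0115). Between successive times, 1 of the 7 genes was called from 3 to 6 h (Apln), 3 from 6 to 12 h (Adipoq, Nampt, Apln) and 3 from 12 to 24 h (Adipoq, Rbp4, Nampt), beside 2.8%, 2.95% and 11.4% of all genes.

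General adipocyte markers moved with the fall of Adipoq. Fabp4, Plin1, Lipe, Cd36 and Lpl, which serve fat uptake, storage and release in any adipocyte, all fell (5 of 5, median log2 change -0.98), and their sum went from 14260 to 18680 CPM on PTU to 8253 to 8906 CPM. At 12 h 4 of the 5 were already lower and 1 higher (median -0.53, sum 14140 to 16430 CPM), and at 6 h 2 were lower. In bulk tissue, fewer adipocytes and less of these mRNAs per adipocyte cannot be told apart. Set against this sum, as CPM per 1000 CPM of the 5 markers, Adipoq was still lower at 24 h (31.8 to 41.8, against 74.4 to 94.3 on PTU) and so was Rbp4 (5.49 to 7.71, against 8.97 to 14.0). Retn overlapped on that scale (5.77 to 9.52, against 5.50 to 8.05), and Nampt lay higher at 24 h (23.1 to 30.7, against 12.6 to 16.9). Of 8 brown adipocyte markers, 2 rose (among them Ucp1, by 0.93) and 2 fell.

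**Figure D2:**
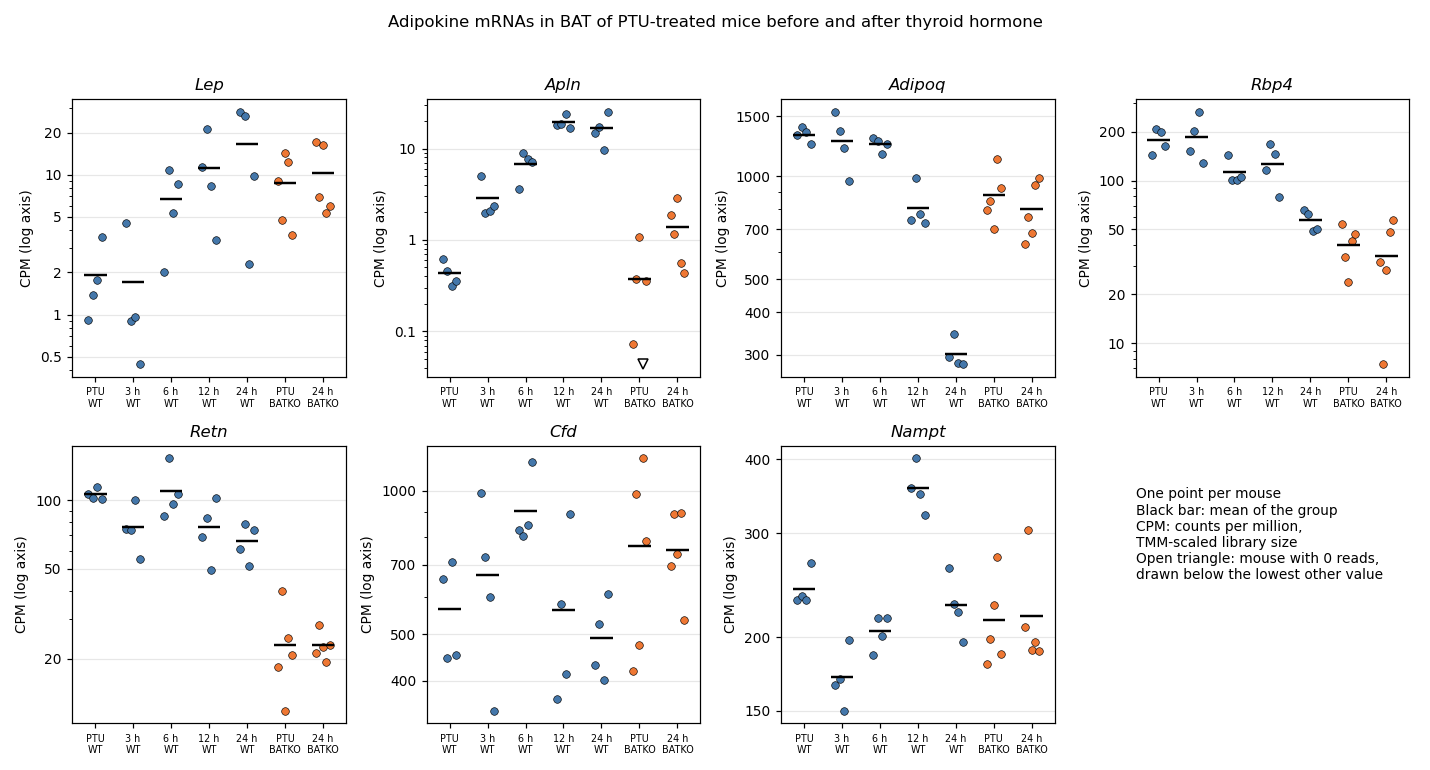
Level of each gene in CPM (log axis) in single mice of the hormone experiment, with the mean of each group as a black bar. Apln stands above the PTU mice from 3 h on and Adipoq falls between 6 and 24 h in wild-type mice (blue), while the BATKO groups with and without TH (orange) overlap for every gene. The open triangle is the BATKO mouse with 0 reads of Apln.

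In BATKO mice the 24 h of TH left no called change among the 7 genes, nor among any of the 14178 genes tested (0% called by edgeR, with 673 genes at an unadjusted p below 0.05). This comparison asks whether the adipokine mRNAs respond to TH in BATKO mice. Adipoq had 701 to 1122 CPM on PTU and 632 to 987 CPM after TH, a difference of -0.13 (95% interval -0.40 to 0.14), and Lep had 3.72 to 14.2 and 5.32 to 17.1 CPM (0.24, interval -0.85 to 1.34). Apln had 1, 6, 17, 0 and 5 reads on PTU and 30, 17, 39, 8 and 5 reads after TH. Its mean went from 0.378 to 1.37 CPM (log2 difference 1.81, SE 0.57), with an unadjusted p of 0.00339 but an edgeR adjusted p of 0.946.

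The response itself differed between the genotypes for 4 of the 7 genes, beside 12.3% of all genes. The difference of the log2 changes, BATKO minus wild type, was 2.00 for Adipoq (SE 0.20, edgeR adjusted p = 2.46e-07), -3.44 for Apln (SE 0.89, edgeR adjusted p = 0.0103), -2.87 for Lep (SE 0.89, edgeR adjusted p = 0.0317) and 1.42 for Rbp4 (SE 0.46, edgeR adjusted p = 0.0377). The first held without any one mouse. The call for Apln was lost without mouse 4 of the BATKO PTU group (-2.55, edgeR adjusted p = 0.132). That for Lep was lost without wild-type mouse B2, B3, B4, B24 or B26 or BATKO mouse 4 or 10 (adjusted p from 0.0532 to 0.0716), and that for Rbp4 without wild-type mouse B3, B4, B26, B27 or B28 or BATKO mouse 3, 4, 10 or 15 (adjusted p from 0.0517 to 0.0899). Without the libraries high in muscle markers, among them wild-type mouse B26 at 24 h, only Adipoq and Apln of the 7 were called. The differences were then -2.55 for Lep (edgeR adjusted p = 0.0654) and 1.47 for Rbp4 (edgeR adjusted p = 0.0532). The call for Rbp4 was also lost when only the groups compared were fitted (edgeR adjusted p = 0.0722).

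The PTU groups of the 2 genotypes, which received no TH, also differed, along with most of the transcriptome. On PTU, BATKO had 4.61-fold less Retn (11.8 to 39.8 CPM, against 102 to 115), 4.45-fold less Rbp4 (23.7 to 53.8, against 143 to 207), 1.51-fold less Adipoq and 4.63-fold more Lep (3.72 to 14.2, against 0.920 to 3.60 CPM) than wild type, so 4 of 7 genes were called beside 70.3% of all genes. The genotypes did not overlap in any of these 4 genes, and such a count is not particular to them given that background. Ucp1, the protein of heat production, was 1.99 lower on the log2 scale in the BATKO mice, as 6 of 8 brown adipocyte markers were lower. Markers of other cells differed between the PTU groups too, with 5 of 7 endothelial genes higher and 1 lower in BATKO (sum 443 to 504 CPM, against 361 to 373 CPM), 4 of 5 red blood cell genes higher and 1 lower, and 3 of 5 fibroblast genes lower and 1 higher. Of the 5 general adipocyte markers 3 were lower and 1 higher (median -0.80, sum 11930 to 14520 CPM, against 14260 to 18680), and per 1000 CPM of them Adipoq overlapped between the genotypes (58.5 to 77.3 in BATKO, 74.4 to 94.3 in wild type). On that scale Retn (0.987 to 3.34, against 5.5 to 8.05), Rbp4 (1.98 to 4.06, against 8.97 to 14) and Lep (0.281 to 1.18, against 0.0577 to 0.227) did not overlap. The part of these cell markers in the adipokine differences was not tested. After 24 h of TH, 4 genes were called (Adipoq 1.41, Retn -1.53, Rbp4 -0.73 and Apln -3.58), beside 69.7% of all genes, and the call for Rbp4 was lost without wild-type mouse B24, B26 or B28 or BATKO mouse 7, 8 or 9 (adjusted p from 0.0515 to 0.0985) and without the libraries high in muscle markers. Without those libraries the Rbp4 difference was -0.68 (edgeR adjusted p = 0.0909). The call for Rbp4 was also lost with DESeq2, with DESeq2 size factors in edgeR and with only the groups compared (edgeR adjusted p = 0.114 in the last). Cfd was not called in this comparison (0.61, edgeR adjusted p = 0.0565), but it was with DESeq2, with its size factors, with no limit on low counts and with only the groups compared (adjusted p down to 0.00665), and in edgeR without wild-type mouse B28 or BATKO mouse 15. Between these TH groups 5 of 7 endothelial genes, 4 of 5 red blood cell genes (1 lower), 2 of 3 tested white fat markers (1 lower) and 2 of 5 general adipocyte markers were higher in BATKO. Lower were 4 of 5 fibroblast genes (1 higher), 3 of 6 macrophage, 4 of 6 skeletal muscle and 5 of 8 brown adipocyte genes, and the part of these markers was likewise not tested. The wild-type and BATKO mice are numbered as separate series, and genotype and any other difference between the 2 sets of libraries cannot be told apart.

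Cold lowered Lep more than any other of the 7 genes. CTRL mice at 30 °C had 25.2, 33.5, 19.0 and 13.7 CPM (141 to 419 reads), and those at 4 °C had 0.903, 0.369 and 0.966 CPM (8, 3 and 9 reads). The log2 change was -4.90 (SE 0.50, edgeR adjusted p = 1.13e-06), or 29.8-fold, and it held without any one mouse. The summed white fat markers were 19.7 to 116 CPM in CTRL mice at 30 °C and 11.9 to 36.3 CPM at 4 °C, but of the 3 that could be tested 1 was higher and 1 lower (median 0.45; in BATKO mice also 1 and 1, median 0.90), and their part in the fall was not tested. In BATKO mice Lep was 24.7, 37.0, 33.3, 36.8 and 20.9 CPM at 30 °C and 4.38, 5.09, 1.10 and 4.33 CPM at 4 °C, a fall of -3.02 (SE 0.35, edgeR adjusted p = 8.34e-06), or 8.14-fold. At 4 °C every BATKO mouse thus lay above every CTRL mouse (log2 difference 2.29, edgeR adjusted p = 0.0347), but this call was lost when CTRL mouse 1 or 2 or BATKO mouse 7, 8 or 12 was left out (adjusted p from 0.0664 to 0.150) and when edgeR was fitted to only the groups compared (adjusted p = 0.0892). The difference between the 2 cold responses was 1.87 (95% interval 0.58 to 3.17) and was not called (edgeR adjusted p = 0.114). It was called with DESeq2 (DESeq2 adjusted p = 0.0308) and in edgeR without BATKO mouse 11 at 4 °C (edgeR adjusted p = 0.0411).

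Adipoq and Rbp4 took opposite directions in the cold. Adipoq in CTRL mice was 930, 829, 644 and 779 CPM at 30 °C and 315, 424 and 399 CPM at 4 °C, with no overlap (-1.07, SE 0.16, edgeR adjusted p = 5.42e-05). In BATKO mice it was 617 to 797 CPM at 30 °C and 511 to 662 CPM at 4 °C, which was not called (-0.28, 95% interval -0.58 to 0.02), and the difference between the genotypes' responses was 0.79 (edgeR adjusted p = 0.0747). That difference was called with DESeq2 (DESeq2 adjusted p = 0.00954) and in edgeR without CTRL mouse 5 at 4 °C (edgeR adjusted p = 0.0412). At 4 °C Adipoq did not overlap between the genotypes and was not called (0.63, edgeR adjusted p = 0.0525). With DESeq2 and with the count limit of 50 this comparison was called. Rbp4 rose in both, from 25.3, 47.9, 82.6 and 96.1 CPM to 115, 142 and 145 CPM in CTRL mice (1.09, SE 0.37, edgeR adjusted p = 0.0229) and from 38.9 to 65.8 CPM to 73.7 to 204 CPM in BATKO mice (1.22, SE 0.33, edgeR adjusted p = 0.00741). The first of these calls was lost without CTRL mouse 2 or 5 at 4 °C or 19 or 20 at 30 °C (adjusted p from 0.0501 to 0.0633). It was also lost without the libraries high in muscle markers (1.15, edgeR adjusted p = 0.0624).

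In CPM, Apln and Cfd were called lower with cold in BATKO mice and not in CTRL mice. Apln was 2.59, 5.94, 2.52, 7.50 and 9.01 CPM at 30 °C and 2.09, 1.30, 1.87 and 0.847 CPM at 4 °C (-1.85, SE 0.40, edgeR adjusted p = 0.00167), against 1.76 to 3.92 and 2.90 to 2.95 CPM in CTRL mice (-0.04, 95% interval -0.96 to 0.88). Endothelial markers also went down in part in the BATKO mice, with 2 of 7 lower and 1 higher (sum 610 to 856 CPM at 30 °C and 497 to 662 CPM at 4 °C), and their part in the fall of Apln was not tested. Cfd had 261 to 794 CPM at 30 °C and 169 to 392 CPM at 4 °C in BATKO mice (-1.04, SE 0.38, edgeR adjusted p = 0.0363), a call lost without mouse 7, 11 or 12 at 4 °C or 13 or 17 at 30 °C (adjusted p from 0.0732 to 0.102) and without the libraries high in muscle markers (-0.77). The difference of the responses between genotypes was not called for Apln (-1.81, edgeR adjusted p = 0.114) or Cfd (-1.60, edgeR adjusted p = 0.135), so a dependence on genotype was not shown. Retn and Nampt were not called in either genotype, and the Nampt means lay between 184 and 205 CPM in the 4 groups.

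In all, 3 of the 7 genes were called in CTRL mice, beside 49.1% of all genes (26.5% higher and 22.6% lower), and 4 in BATKO mice, beside 40.3% (21.4% higher and 18.9% lower). Between the genotypes 1 of 7 was called at 4 °C, beside 2.16%, and none at 30 °C, beside 0.00754%, and none for the difference of the responses, beside 1.12%. General adipocyte markers moved with cold in the other direction from the hormone experiment, with 4 of 5 higher in CTRL mice (sum 7845 to 9332 CPM at 30 °C, 18070 to 25870 CPM at 4 °C). Per 1000 CPM of these markers, Rbp4 overlapped between 30 and 4 °C in CTRL mice (3.01 to 10.5 and 5.62 to 6.35) and Nampt was lower at 4 °C (7.18 to 8.53, against 19.0 to 24.7), while Lep (0.0153 to 0.05, against 1.47 to 4.05) and Adipoq (15.4 to 17.6, against 82.0 to 111) were lower on this scale too, as were Apln (0.112 to 0.162, against 0.209 to 0.477) and Retn (0.443 to 1.59, against 1.99 to 5.40), neither of which was called in CPM. Cfd overlapped in CTRL mice (10.3 to 35.2 at 4 °C and 26.3 to 60 at 30 °C). In BATKO mice the called rise of Rbp4 overlapped likewise (4.92 to 8.09 at 30 °C and 3.50 to 10.7 at 4 °C), and Adipoq, which was not called in CPM, was lower at 4 °C (26.7 to 36.3, against 78.7 to 98.0), as was Nampt (9.65 to 11.7, against 22.5 to 25.7). Lep (0.0557 to 0.242, against 2.84 to 4.57), Apln (0.0464 to 0.109, against 0.286 to 1.23) and Cfd (8.83 to 18.6, against 29.6 to 108) were also lower in these mice. Their Retn overlapped (1.09 to 3.37, against 0.934 to 4.97). All 8 brown adipocyte markers rose in CTRL mice, Ucp1 by 4.40, and red blood cell markers rose as well (3 of 5, sum 177 to 333 CPM at 30 °C and 766 to 1711 CPM at 4 °C). Their fibroblast sum was lower at 4 °C (188 to 208, against 250 to 352 CPM). In BATKO mice the brown adipocyte sum (9742 to 17710, against 1743 to 3149 CPM) and the red blood cell sum (771 to 1111, against 182 to 494 CPM) were higher at 4 °C. The fibroblast sum of BATKO mice overlapped (218 to 345, against 233 to 284 CPM). The part of these shifts in the values of the 7 genes was not tested.

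**Figure D3:**
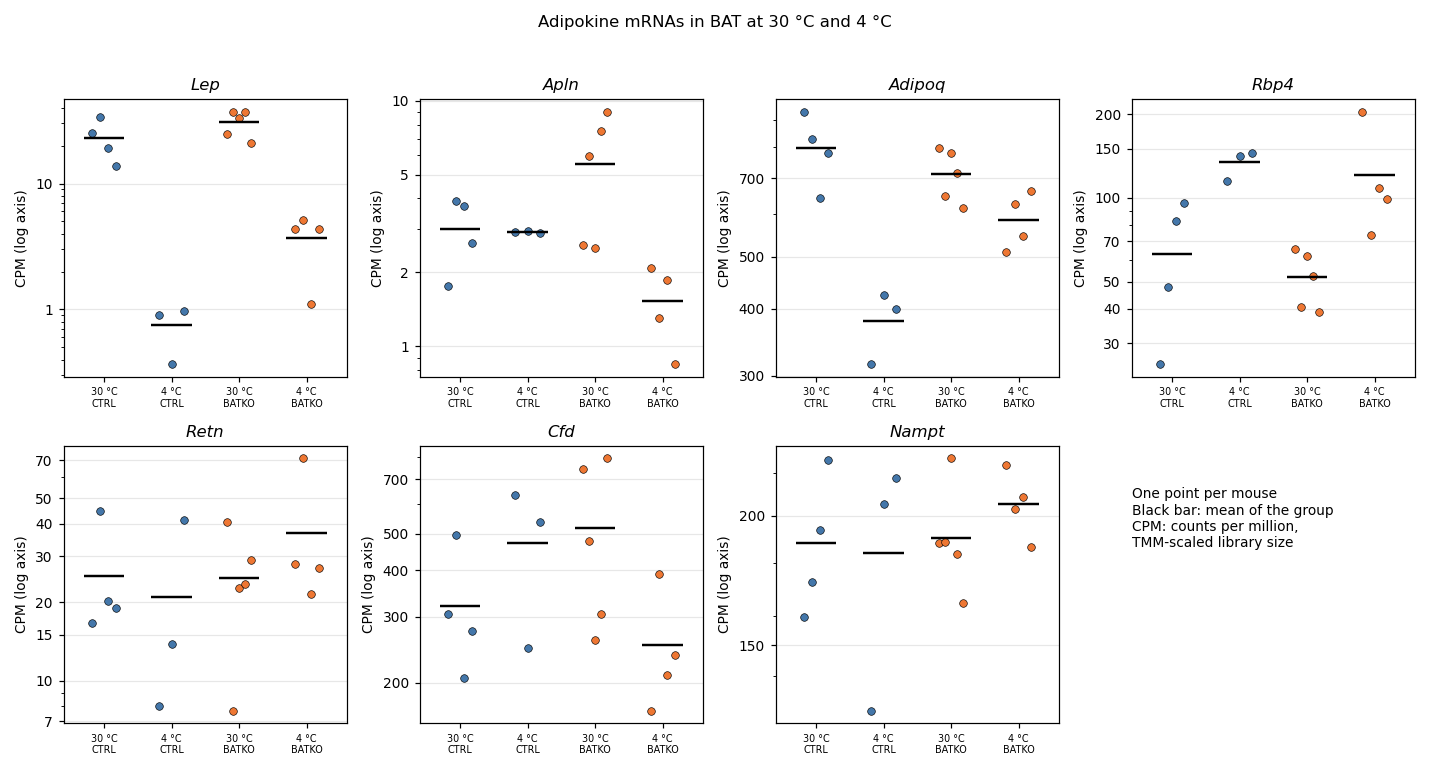
Level of each gene in CPM (log axis) in single mice at 30 °C and 4 °C, with the mean of each group as a black bar. Lep is lower in the cold in both genotypes, from 13.7 to 33.5 CPM to below 1 CPM in CTRL mice, and Rbp4 has its higher means at 4 °C.

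On the high-fat diet none of the 7 genes was called in any comparison. CTRL mice had 29.4, 33.8, 42.0 and 28 CPM of Retn on chow and 23.8, 11.9, 17.7 and 18.7 CPM on HFD, without overlap, and the adjusted p fell just short of the threshold (log2 change -0.89, SE 0.24, edgeR adjusted p = 0.05004). Cfd likewise did not overlap, at 792, 500, 698 and 471 CPM on chow and 280, 410, 402 and 373 CPM on HFD (-0.75, SE 0.22, edgeR adjusted p = 0.0745). With DESeq2 both were called, and so they were with no limit on low counts. Retn was also called with the limit of 50, with only the groups compared and without HFD mouse 7 (edgeR adjusted p = 0.0362 in the last). The mean of Apln was 4.49 CPM on chow and 8.97 CPM on HFD (1.01, edgeR adjusted p = 0.158). Apln was called with no limit on low counts (edgeR adjusted p = 0.00723). Lep was 16.4, 16.5, 24.2 and 14.5 CPM on chow and 45.4, 27.4, 4.72 and 33.3 CPM on HFD, where 3 mice lay above all chow mice and 1 below (0.62, 95% interval -0.31 to 1.55). The low mouse, number 10, also had the highest Apln (17.5 CPM) and the lowest Rbp4 and Nampt of its group, and a macrophage marker sum of 237 CPM against 92.1 to 96.2 CPM in the other 3. With HFD 2 of 5 fibroblast markers (sum 324 to 419 CPM, against 248 to 316 CPM on chow) and 3 of 8 brown adipocyte markers rose in CTRL mice, and none of the macrophage markers was called. The part of these markers in the adipokine values was not tested.

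Over all 12932 genes, 3.94% were called for HFD in CTRL mice and 0.0696% in BATKO mice. For BATKO against CTRL on HFD, on chow, and for the difference of the diet responses the share was 0%, with 691, 1024 and 740 genes at an unadjusted p below 0.05. In BATKO mice Rbp4 was 37.7 and 37.6 CPM on chow and 47.8, 61.9 and 84.0 CPM on HFD (0.78, edgeR adjusted p = 0.275), and Retn had the same mean of 24.5 CPM on both diets. Rbp4 did not overlap between the diets in BATKO mice, and with no limit on low counts it was called (edgeR adjusted p = 0.0457). The white fat markers summed to 162 to 293 CPM in the BATKO chow mice and 51.9 to 98.8 CPM in the CTRL chow mice, with none of the 3 tested called and a median log2 difference of -0.40.

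**Figure D4:**
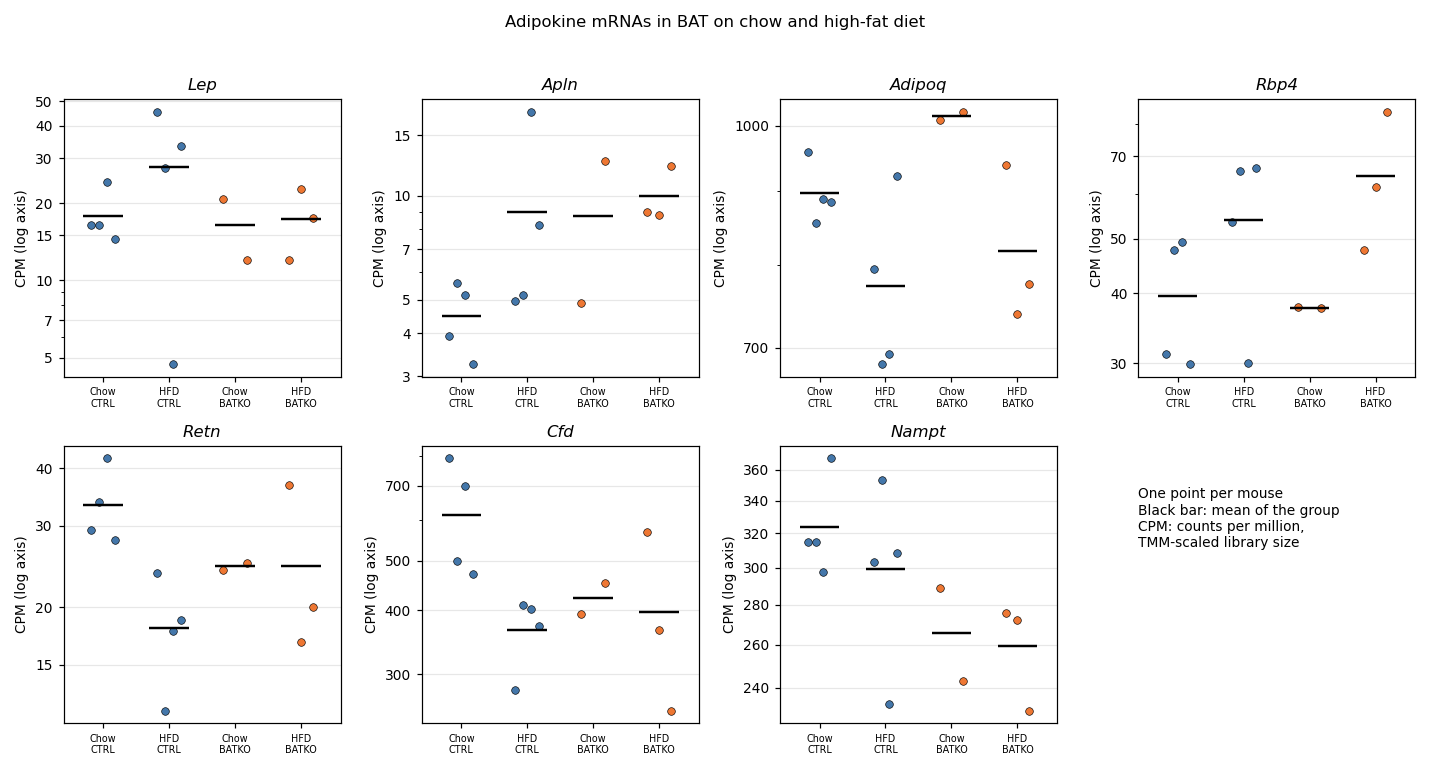
Level of each gene in CPM (log axis) in single mice on chow and HFD, with the mean of each group as a black bar. Retn and Cfd of CTRL mice do not overlap between the diets, at 28 to 42.0 against 11.9 to 23.8 CPM for Retn, and no gene was called.

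**Figure D5:**
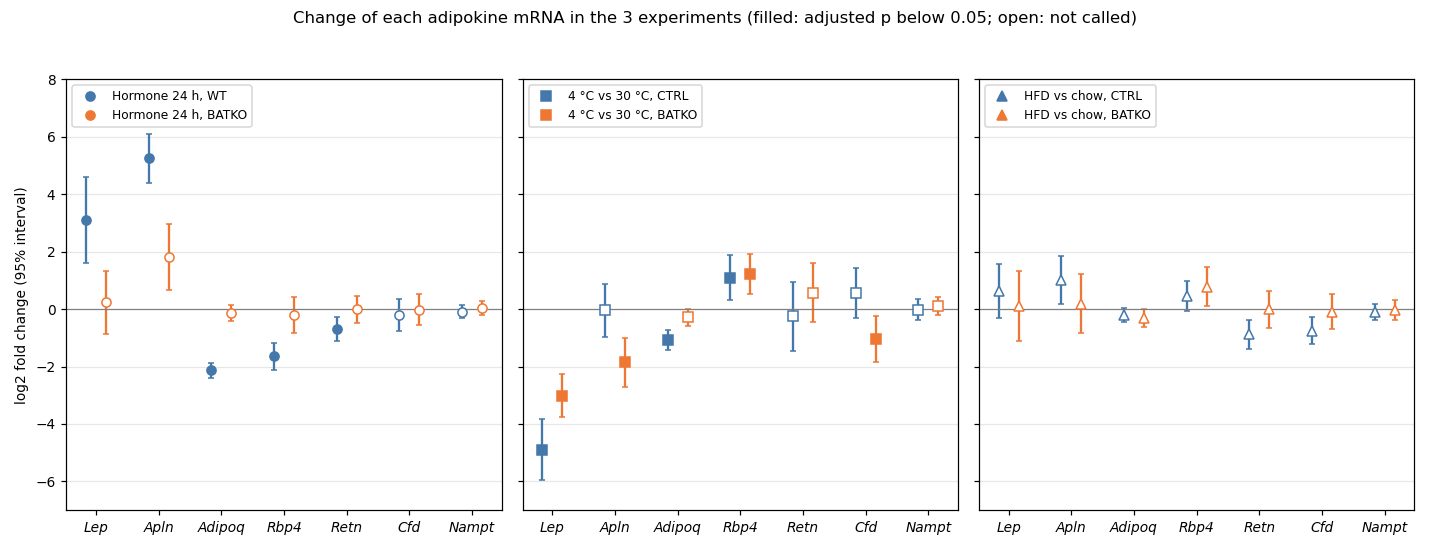
Log2 fold change of each gene with its 95% interval for 24 h of TH, for 4 °C against 30 °C and for HFD against chow, in wild-type or CTRL mice (blue) and BATKO mice (orange), with filled points where the adjusted p was below 0.05. In wild-type or CTRL mice Lep rose by 3.11 with TH and fell by 4.90 with cold, and Adipoq fell with both. In BATKO mice neither gene was called with TH and Adipoq was not called with cold. The difference between the genotypes' cold responses of Adipoq was not called either (0.79, edgeR adjusted p = 0.0747).

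The receptors of these adipokines were also measured in the tissue. Of 9 listed receptor genes 6 passed the limit on low counts, and Lepr, the leptin receptor, and Stra6, a receptor for Rbp4, did not (group means of at most 0.457 and 0.0869 CPM). At 24 h of TH, Cdh13, a cadherin that binds adiponectin, rose by 1.36 (SE 0.17, edgeR adjusted p = 3.36e-06) and Adipor2 fell by 0.71 (SE 0.12, edgeR adjusted p = 0.000126), so 1 rose, 1 fell and 4 were not called (median log2 change 0.15), beside 17.2% of all genes higher and 15.5% lower. Adipor1 differed by 0.06 (SE 0.09) and Aplnr, the apelin receptor, by 1.09 (SE 0.42, edgeR adjusted p = 0.0519). Of the 6 receptors, Cdh13 alone was called for a difference of the response between genotypes (-1.31, SE 0.21, edgeR adjusted p = 0.000138), beside 12.3% of all genes.

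In the cold, Aplnr fell from 29.0 to 2.93 CPM in CTRL mice (-3.31, SE 0.49, edgeR adjusted p = 4.05e-05) and from 32.8 to 6.46 CPM in BATKO mice (-2.34). The innate immune receptor Tlr4 fell in CTRL mice too (-0.98, edgeR adjusted p = 0.00856). Of the 6 receptors 2 rose and 2 fell in CTRL mice, beside 26.5% and 22.6% of all genes, and 1 rose and 2 fell in BATKO mice, beside 21.4% and 18.9%. Adipor2 rose in both (1.14 in CTRL, 0.91 in BATKO), and Cdh13 rose in CTRL mice (0.48, edgeR adjusted p = 0.0351) and fell in BATKO mice (-0.47, edgeR adjusted p = 0.0272), with a difference of responses that was not called (edgeR adjusted p = 0.0624). No receptor was called for HFD in CTRL mice.

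The pathways around single adipokines were given by lists of known genes. For Nampt, 13 of 16 genes of NAD metabolism were tested, and at 24 h of TH 5 rose and 5 fell (median 0.02), beside 17.2% of all genes higher and 15.5% lower. Nnmt, which methylates nicotinamide, fell by 2.21, while Sirt3, an NAD-dependent mitochondrial deacetylase, rose by 0.87. In cold CTRL mice 6 rose and 3 fell, beside 26.5% and 22.6% of all genes, with Nnmt 4.60 higher and Slc25a51, the mitochondrial NAD carrier, 1.78 higher. Around Cfd, 7 of 11 genes of the alternative complement pathway were tested and 3 fell at 24 h of TH (Cd55 by 1.55, C3 by 0.98 and Cd59a by 0.44; median -0.44), with none higher, beside 15.5% of all genes lower.

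The remaining counts at 24 h of TH also stand beside 17.2% of all genes higher and 15.5% lower. For Rbp4, 8 of 16 genes of retinol handling were tested, of which the retinoic acid receptor Rara (1.16) and the retinal dehydrogenase Aldh1a1 (0.81) rose and the reductase Dhrs3 fell (-1.11). Of 7 genes of leptin signalling, Ptpn11 (0.84) and Jak2 (0.30) rose and Irs1 (-1.56) fell. Of 5 tested genes of adiponectin assembly, Ero1l rose by 0.39 and the other 4 were not called. Among 11 regulators of adipocyte genes 3 rose, among them Epas1, a hypoxia-inducible factor (1.78), and Foxo1 (1.23), and 3 fell, among them Cebpa (-0.95) and the thyroid hormone receptor Thra (-0.38), whereas Thrb did not pass the test (0.23). In BATKO mice no gene of any of these lists was called after TH.

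How much the 7 genes varied between mice of one group also differed among them. In the hormone experiment the pooled SD within groups, on the log2 scale, was 1.08 for Lep, 0.75 for Apln and 0.59 for Rbp4, which placed them at percentiles 99.3, 98.2 and 95.3 of the 14178 genes. Adipoq (0.21, percentile 33.6) and Nampt (0.19, percentile 26.8) were below the median gene (0.26). In the temperature experiment Retn varied the most of the 7 (0.86, percentile 96.6) and in the diet experiment Lep again (0.90, percentile 98.5).

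The genes with the most similar course in wild-type mice were found by Pearson's r of log2 CPM over the 20 wild-type mice, among 9217 genes with a mean normalised count above 50. The mice come from 5 time groups, and r, which was not split into parts within and between them, is a description with no test. For Adipoq the closest were Car3 (r = 0.97), Ppa1 (0.96) and Cidec (0.96), and only Car3 of these had a high r in the 16 mice of the temperature experiment (0.86) and the 13 of the diet experiment (0.84) too. For Apln they were Mgat4b (0.97), Gmps (0.96) and E2f6 (0.96), with r of -0.11, -0.53 and -0.10 over the temperature mice. For Lep they were Kctd6 (0.91), Prkab1 (0.91) and Lman1 (0.89), of which Prkab1 (-0.84) and Lman1 (-0.92) ran opposite to Lep in the temperature experiment.

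For Rbp4 the closest were 2810402E24Rik (0.91), Fcor (0.90) and Mmd (0.90), and Fcor stayed near it at 0.75 over the temperature and 0.64 over the diet mice. For Nampt they were Slmap (0.91), Fbxo3 (0.90) and Pcgf5 (0.88), with 0.84 and 0.67 for Fbxo3 in the other experiments. For Retn they were Slc25a10 (0.87), Dcun1d1 (0.77) and Echdc2 (0.73), and for Cfd Nmb (0.80), Gm10275 (0.77) and Fhl3 (0.77).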

How the data were processed

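BAT RNA libraries (Lexogen SENSE total RNA kit, NextSeq 500) of 59 mice were analysed. The authors deposited 3 tables of raw counts per gene symbol; the submitters' processing notes name Bowtie2 2.3.2.2, DESeq2 and mm10, the study's methods name htseq-count for transcriptome data, without saying that it made these tables, and the strand setting is not given in the sources used here. Groups came from the labels, which number the samples and state no pooling. Here edgeR 4.0.16 (R 4.3.3) was run on all mice of a fit (20 wild-type mice, or all 30, 16 or 13 mice of the hormone, temperature or diet experiment), with TMM scaling, a mean normalised count above 10, the quasi-likelihood F test (two-sided) and Benjamini-Hochberg adjustment over all genes tested at 0.05. The SE is the log2 change over the root of F. The fits were tested on simulated data. Alternatives were DESeq2 1.42.0, its size factors, no count limit or one of 50, no mitochondrial genes, only the groups compared, all 30 mice, and each mouse left out. Leaving out libraries above 1000 CPM of muscle markers and scaling to adipocyte markers were added after the data were seen. The genes and lists were chosen with earlier results of these data known. Named were all 7 genes, receptors, check genes, at most 3 called genes per list by adjusted p, and the 3 genes of highest r. Of 55341 symbols, 55327 matched the annotation, and 14 are symbols turned into dates. No pair among 91 pairs of mice of one group differed by less than sampling noise (lowest chi-square per degree of freedom 6.89). No source used here says that the numbered samples were prepared independently, so p-values measure the spread between these samples. The list of other adipokines is not reported here.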

Additional observations from a re-analysis of the deposited data

Results flagged for a closer look

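Within groups of 4 or 5 mice, 8 of 84 sets of values of the 7 genes had 1 mouse far from the others by Dixon's ratio (the gap to the nearest mouse over the whole range), where chance would give about 4.2. At 3 h of TH, mouse B7 had the highest Apln (5.04 CPM, ratio 0.875) and the highest Lep (4.49 CPM, ratio 0.874). At 6 h, mouse B12 had the highest Rbp4 (144 CPM, ratio 0.886) and mouse B17 the highest Cfd (1149 CPM, ratio 0.879). On PTU alone, wild-type mouse B5 had the highest Nampt (268 CPM, ratio 0.883), and after TH BATKO mouse 8 had the highest Nampt (304 CPM, ratio 0.839). Retn was highest in BATKO mouse 8 at 4 °C (70.9 CPM, ratio 0.867) and in CTRL mouse 20 at 30 °C (44.6 CPM, ratio 0.874).

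The response to 24 h of TH differed between BATKO and wild-type mice by the test of the difference itself (log2, BATKO minus wild type) for Lep (-2.87), Adipoq (2.00), Rbp4 (1.42) and Apln (-3.44).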

How the results depend on the processing

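Of 40 calls over the 7 genes and 21 comparisons, 29 held in every fit that left out 1 mouse, and no log2 change with an unadjusted p below 0.05 (67 of 147) turned its sign in any alternative. The number of the 7 genes called, when 1 mouse was left out, ranged over 1 to 2 for TH 6 h against PTU, 0 to 1 for 6 h against 3 h, 1 to 4 for the genotype difference of the TH response, 0 to 1 for BATKO against CTRL at 4 °C, 0 to 1 for the genotype difference of the cold response and 0 to 1 for HFD in CTRL mice. With DESeq2 it was 2 (in place of 1) for 6 h against 3 h and for BATKO against CTRL at 4 °C, and 2 (in place of 0) for the cold difference and for HFD in CTRL mice. With no count limit it was 4 (in place of 2) for 6 h against PTU, 3 for 6 h against 3 h, 3 for HFD in CTRL mice and 1 for HFD in BATKO mice. With a limit of 50 it was 2 at 4 °C and 1 for HFD in CTRL mice. With only the groups compared it was 4 for 6 h against PTU, 0 for 6 h against 3 h, 0 at 4 °C and 1 for HFD in CTRL mice. With all 30 mice it was 1 for 6 h against PTU and 0 for 6 h against 3 h. Without the libraries high in muscle markers it was 2 (in place of 4) for the genotype difference of the TH response. The causes were not tested. DESeq2 size factors and leaving out mitochondrial genes moved no count by over 1.5 times. Levels per kilobase and per adipocyte marker, in other units, stand in the report. No paired analysis was possible because no label ties mice of different groups to one another, and groups compared share no mouse number. The 3 to 9 reads of Lep in cold CTRL mice and 0 to 17 reads of Apln in BATKO mice on PTU limit the precision of their folds.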
